A study of Mus musculus with 2 samples.

Results

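The genes described here are the nuclear-encoded members of the oxidative phosphorylation machinery. They were taken by symbol, as all features starting with Nduf followed by a, b, c, s or v, with Uqcr, with Atp5, or with Cox followed by 4 to 8. Of 31053 features in the files 89 matched, and the 82 with at least 20 unique molecular identifiers (UMIs) over both libraries were kept. By symbol these are 37 complex I genes, 8 complex I assembly factors (Ndufaf), 8 complex III genes (Uqcr), 13 complex IV genes (Cox) and 16 complex V genes (Atp5). The symbol rule places Ndufa4, now known as a complex IV subunit, with complex I, and it takes in Cox7a2l, a factor that links complexes III and IV, and Atp5s, a factor that is not a stable part of the ATP synthase. The 7 features that were not kept are the alternative isoforms Cox4i2, Cox6a2, Cox7b2, Cox8b, Cox8c and Ndufa4l2 and a duplicate Atp5o feature without a UMI.

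Single-cell RNA sequencing was performed on cd11b+ gut lamina propria cells, taken according to the study's methods from the colon. A single 10x Genomics 3' library represents the wild type (WT), and another the knockout (KO) of the long non-coding RNA that the labels call LncRNA17Rik. The study writes of lncLy6c knockout mice, and no source used here states that both names mean the same RNA. The WT sample is titled WTGFC, and no source used here explains the last letters. The study describes each library as a pool of 8-week-old male mice, so each genotype is 1 sample and nothing in these data measures the spread between animals. LncRNA17Rik matches no feature symbol, so the deletion was not checked here. The WT library contained 22191774 UMIs in 3185 barcodes, against 23384895 UMIs in 3020 barcodes for KO. Both cell numbers stated by the study were above these barcode numbers, by several fold for WT and slightly for KO. The filter of the study left 2597 WT and 2514 KO cells, with a median of 5073 and 6564.5 UMIs per cell. Only 1 barcode occurred in both libraries.

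Oxidative phosphorylation takes place in the inner mitochondrial membrane. Complex I passes electrons from NADH to ubiquinone, complex III passes them on to cytochrome c, complex IV hands them to oxygen, and complex V, the ATP synthase, uses the proton gradient that the pumping complexes build up. Most subunits are encoded in the nucleus, and a small set of core subunits is encoded by mitochondrial DNA, so that both genomes have to supply parts. In macrophages, tissue-resident and alternatively activated cells are known to lean on oxidative phosphorylation, inflammatory activation is known to shift cells towards glycolysis, and mature neutrophils are known to hold few mitochondria.

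The promoters of these genes are known to be bound by shared activators, among them NRF1, GABPA (NRF2) and YY1. The RefSeq promoter windows (GRCm38.p6, 250 bases before to 50 bases after a gene's start) were matched for 71 of the 82 genes. The other 11 had no window. A core of each binding motif was searched on both strands, GCATGCGC for NRF1, CCGGAAG for GABPA and AAGATGGC for YY1. The NRF1 core was in 14.5% of the 76 windows of these genes and in 2.71% of all 32851 windows, the GABPA core in 21.1% and 8.86%, and the YY1 core in 14.5% and 2.75%. Any of the 3 cores was found in 42.1% of the genes' windows and in 13.3% of all windows. A match describes the sequence and does not show that a factor binds. The upstream stretches of 3 genes are shown, since Atp5g2 was lower in KO in all 9 cell classes, Cox8a higher in 8 of them and Uqcr11 among the lowest KO genes in 3 classes, in 1 of which (B cell-like) its direction turned with separate clustering. Capitals mark the motif cores. The NRF1 core is found on both strands of Atp5g2, at 42 and 40 bases before the start, where the 2 matches overlap. An annotated exon of another Atp5g2 transcript overlaps the surroundings of the match, so only 30 bases are given there. The start used for Atp5g2 lies inside the annotated span of the gene (chr15:102662864-102672352) and is not its outermost start. Strands are minus for all 3, at chr19:7217613-7217716 for Cox8a, chr15:102671073-102671102 for Atp5g2 and chr10:80406818-80406921 for Uqcr11.
Cox8a: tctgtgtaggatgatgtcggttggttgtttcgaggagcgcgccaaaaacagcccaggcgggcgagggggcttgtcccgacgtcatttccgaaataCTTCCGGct
Atp5g2: gttggctccggccGCGCATGCGCagagcct
Uqcr11: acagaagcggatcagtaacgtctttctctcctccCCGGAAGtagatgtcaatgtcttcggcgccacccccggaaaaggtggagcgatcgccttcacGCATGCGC

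Cells were clustered without these genes, and clusters were named from marker genes with the ending -like. In 9 classes both libraries held at least 50 cells: resident macrophage-like, intermediate, inflammatory monocyte-like, cDC1-like, cDC2-like, eosinophil-like, neutrophil-like, B cell-like and T cell-like. The intermediate class is a single cluster of 620 WT and 135 KO cells with 7 raised resident macrophage markers and 6 raised inflammatory monocyte markers. It was led by Ly6i, Mmp14 and Inhba, and it existed as a class of its own only under some clusterings. Eosinophil-like cells rested on 3 raised markers of 6, Siglecf, Ccr3 and Alox15, with low totals (median 799 WT and 971 KO UMIs per cell). Of the neutrophil markers 2 were raised in them as well. B cell-like, T cell-like, plasma cell-like, epithelial-like and fibroblast-like clusters were present although the labels name cd11b+ cells. Levels are CPM, the summed UMIs of a gene or group as counts per 1e6 UMIs of its class and library. Intervals are exact 95% intervals that cover counting error only, and there was no test between the libraries.

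Over all kept cells, the genes took 1.80% of WT and 1.469% of KO UMIs, and without the epithelial-like cells, most of them WT and left out after seeing the data, 1.471% and 1.458%. Over both libraries together, the largest contributors were Cox4i1 with 4.85%, Atp5e with 4.79%, Cox7c with 3.76% and Uqcrh with 3.47% of the UMIs of all 82 genes. That order is the one of WT, and in KO the highest were Atp5e (755 CPM), Cox4i1 (679 CPM), Cox8a (565 CPM) and Atp5l (538 CPM). Cox4i1 is the regulatory subunit 4 of cytochrome c oxidase, Atp5e the small epsilon subunit of the ATP synthase, Cox7c a small structural subunit of complex IV, and Uqcrh the hinge protein of complex III.

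The summed level differed between cell classes, and in the same order in both libraries at the top and the bottom. The cDC1-like cells, cross-presenting dendritic cells, were highest, with a WT level of 17918 CPM (interval 17733 to 18105) and a KO level of 17468 CPM (17359.5 to 17576.5). The cDC2-like cells had 15767 CPM in WT and 15759.5 CPM in KO. At the other end, neutrophil-like cells had 8421 CPM in WT and 6815 CPM in KO, eosinophil-like cells 9331 and 8839.8 CPM, and B cell-like cells 10839.9 and 9816 CPM. The cDC1-like sum was above the neutrophil-like sum by 1.09 on the log2 scale in WT (interval 1.02 to 1.16) and by 1.36 in KO (1.32 to 1.40). The macrophage lineage lay between, with 13179 (WT) and 11097 (KO) CPM for resident macrophage-like cells, 14393 and 14670.4 CPM for intermediate cells, and 15764 and 13679.7 CPM for inflammatory monocyte-like cells. Within it the resident macrophage-like cells were lowest in both libraries. Only the WT cDC2-like and inflammatory monocyte-like cells, next to each other in the order, had overlapping intervals. The T cell-like cells held place 2 in WT with 16888 CPM and place 5 in KO with 11875 CPM.

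**Figure D1:**
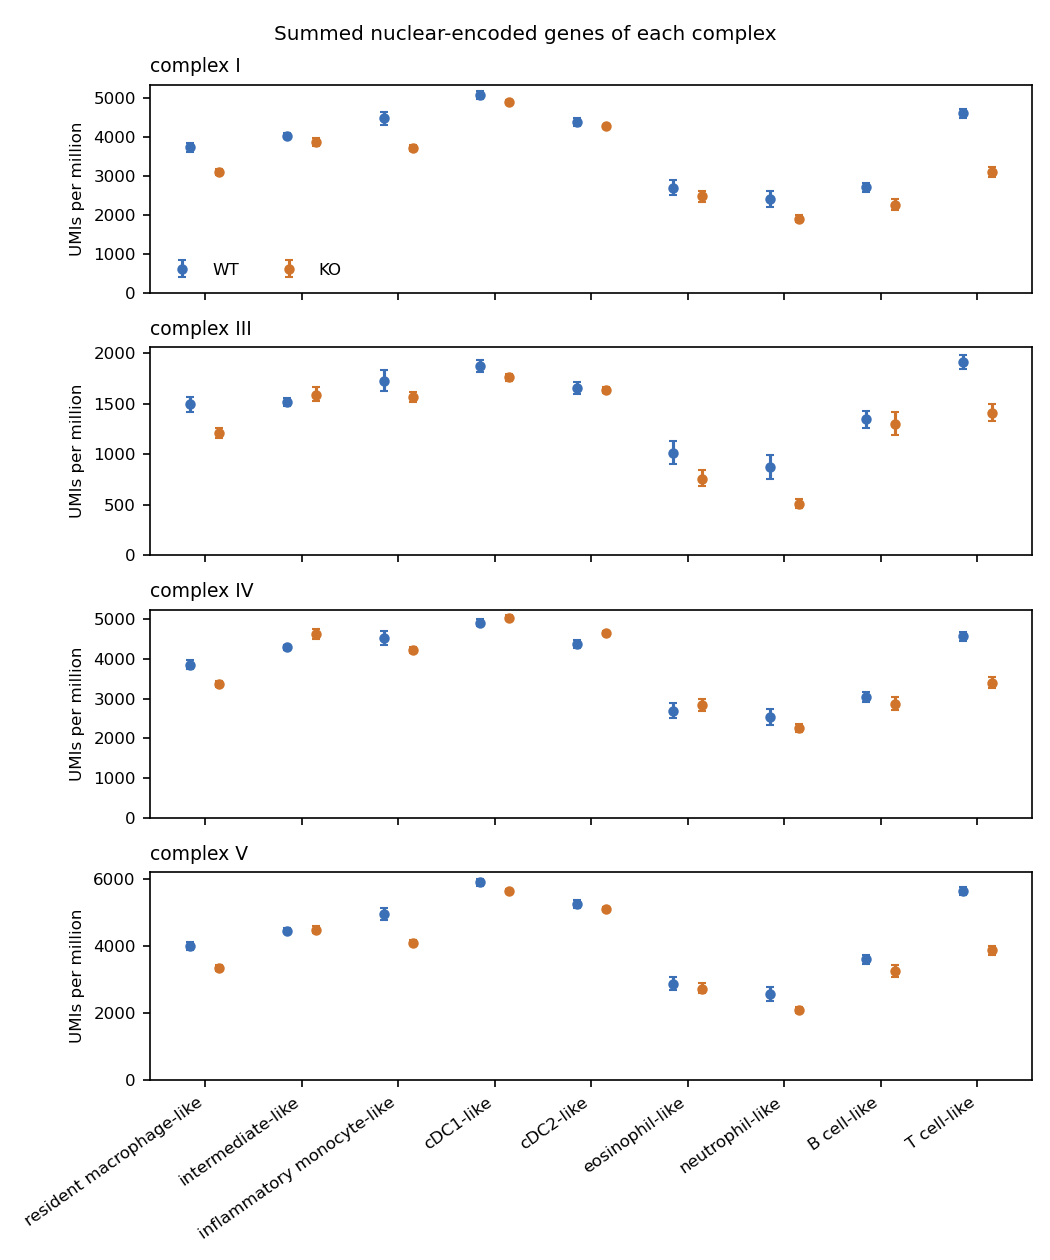
Summed CPM (vertical axis, from 0) of the genes of complexes I, III, IV and V in each cell class, for the WT (blue) and KO (orange) library, with exact Poisson 95% intervals. In every panel the cDC1-like cells stand above the eosinophil-like, neutrophil-like and B cell-like cells, and the T cell-like points are further apart between the libraries than those of the dendritic cell classes.

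The complexes rose and fell together between classes. Over the 18 points that 9 classes in 2 libraries give, the log2 level of complex I had a Pearson correlation of 0.97 with complex IV and 0.96 with complex V, and complex IV one of 0.97 with complex V. Complex III had 0.88 with complex I, 0.90 with complex IV and 0.94 with complex V. These points share libraries and total counts, and the summed level also had a correlation of 0.74 with the median UMIs per cell of the points, whose part in it was not tested. The assembly factors followed complex I less closely (0.47), at levels of 47 to 147 CPM in all. The proportions of the complexes varied less, with complex I between 23.1% and 28.9%, complex III between 7.48% and 13.2%, complex IV between 27.1% and 33.03% and complex V between 29.97% and 33.4% of the genes' UMIs over the 9 classes and both libraries. Of these classes the B cell-like cells had the lowest complex I shares, 24.96% in WT (24.0 to 25.9) and 23.1% in KO (21.7 to 24.4). Neutrophil-like cells had 10.3% complex III in WT (9.01 to 11.7) and 7.48% in KO (6.83 to 8.16). Plasma cell-like cells, almost all of them WT (234 WT and 5 KO), had another balance, with complex I at 34.7% (interval 34.3 to 35.1) and complex IV at 23.6% (23.2 to 23.9). Fibroblast-like cells had 33.4% complex I in WT and 33.7% in KO. Epithelial-like cells (145 WT and 17 KO) had the highest sum of any named class, 42284 CPM in WT and 31502 CPM in KO, with complex IV at 32.9% and 30.5%.

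In a cDC1-like and a plasma cell-like cluster with cell cycle genes among the leading genes, the level was higher than in the other cluster of their class. The cDC1-like cluster led by Pclaf and Top2a had 19254 CPM in WT and 18541 CPM in KO, against 17508 and 16653 CPM in the other cDC1-like cluster. Its cells also carried more UMIs, with a median of 19003 against 7701 in WT, and the part of this in the level was not tested. The plasma cell-like cluster with Rrm2 and Hist1h2ap had 20625.9 CPM in WT, against 11888 CPM in the other WT plasma cell-like cluster. Here too the median UMIs per cell differed (26165.5 against 15514.5), and plasma cell markers took 112339 against 225094 CPM of the total, whose part was not tested.

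Single genes followed the classes to different degrees. Of the 82 genes, 37 had at least 50 UMIs in every class. For each the mean of both libraries was taken per class, and the highest class was 1.64 to 5.22 times the lowest, with a median of 2.75. Over all 1524 genes that met the same minimum the median was 3.32. The highest class was cDC1-like for 25 of the 37 genes and the lowest was neutrophil-like for 22. No such counts are given for all 1524 genes, so these cannot be set against genes in general. The widest range was that of Atp5g2, a gene for the c subunit of the ATP synthase rotor, with 469 CPM in cDC1-like and 89.9 CPM in neutrophil-like cells. Atp5d, the delta subunit of the ATP synthase stalk, ran from 283 CPM in T cell-like to 67.8 CPM in eosinophil-like cells (4.18 times). Atp5g3, another c subunit gene, Ndufa4 and Cox7c followed with 4.04, 3.99 and 3.96 times. The narrowest was Atp5l, the g subunit of the ATP synthase, with 637 CPM in inflammatory monocyte-like and 389 CPM in B cell-like cells (1.64 times), before Ndufa3 (1.78 times) and Ndufa2 (1.88 times), both accessory subunits of complex I. The level of Ndufa3 also followed the sum of the other genes least, with a correlation of 0.40 over the 18 points, where the median gene of the 37 had 0.84. The same correlation is not given for genes in general.

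**Figure D2:**
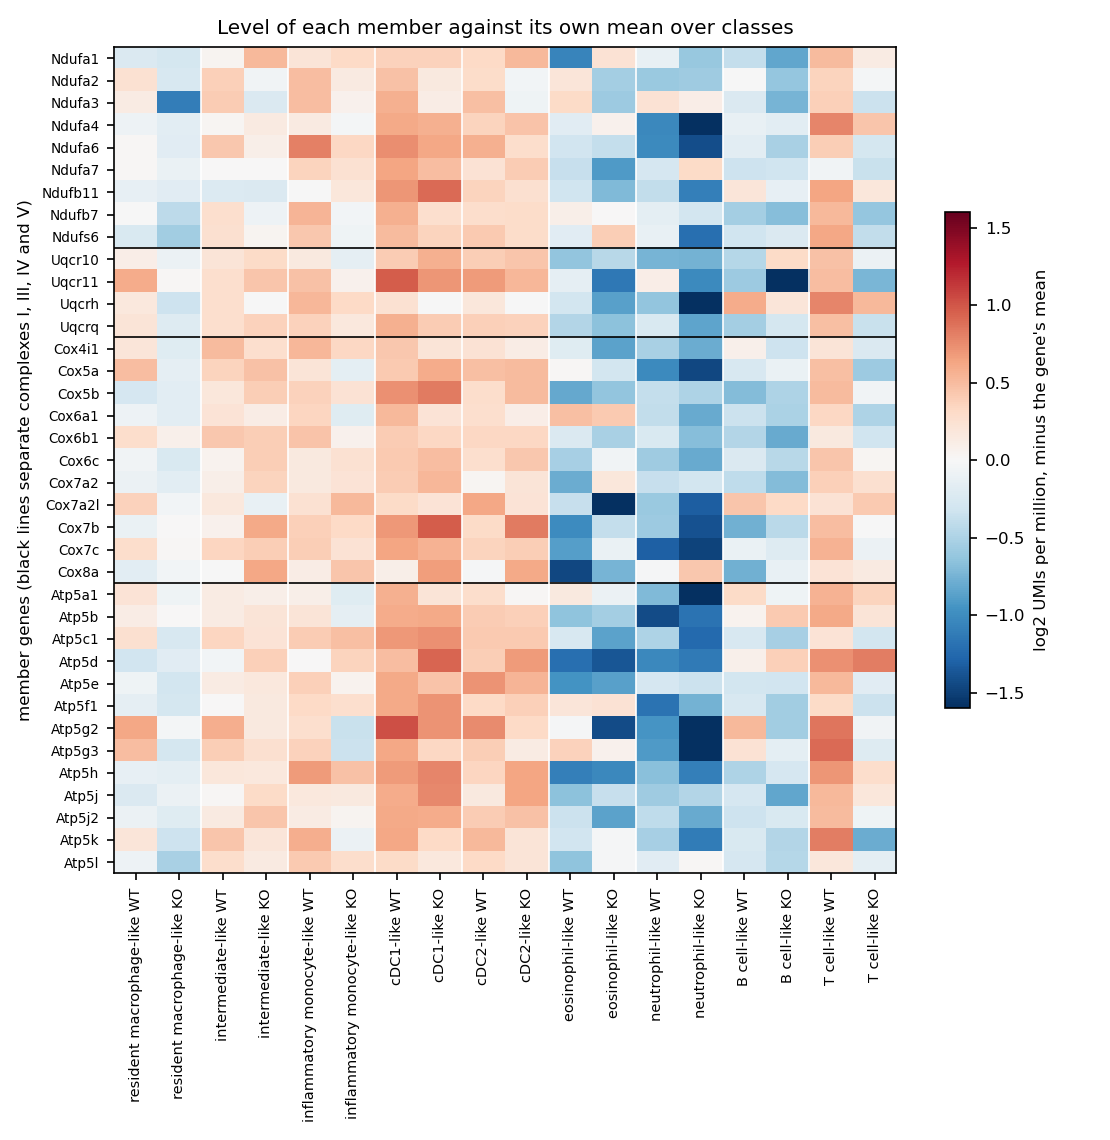
Level of the 37 genes with at least 50 UMIs in every class (rows, grouped by complex) in each class and library (columns), as log2 CPM minus the gene's mean over the 18 columns; values past the ends of the scale take its end colour. Red fills the cDC1-like columns and blue the neutrophil-like, eosinophil-like and B cell-like columns for most genes, and Atp5g2 shows one of the deepest contrasts.

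The comparison of KO with WT asks whether loss of the RNA goes with a different level of these genes within a cell class. Genes in general were shifted too: the median log2 KO to WT ratio of all genes with at least 20 UMIs ran from -0.22 in intermediate cells to -0.092 in cDC1-like cells, and was 0.018 in eosinophil-like cells. In the main clustering no class had a sum of the 82 genes that was 1.5-fold apart. With each library clustered alone the T cell-like sum was past it (log2 -0.68, -0.72 to -0.63). The values that follow are those of the main clustering. The ratio was largest in T cell-like cells (-0.51 on the log2 scale, interval -0.54 to -0.47), before neutrophil-like (-0.31, -0.38 to -0.23), resident macrophage-like (-0.25, -0.28 to -0.22) and inflammatory monocyte-like cells (-0.20, -0.24 to -0.17). It was -0.14 in B cell-like, -0.078 in eosinophil-like, -0.037 in cDC1-like, -0.00069 in cDC2-like (-0.020 to 0.019) and 0.028 in intermediate cells. After subtraction of the median of all genes the T cell-like value was -0.30, the eosinophil-like value -0.096, the neutrophil-like value -0.090, the resident macrophage-like value -0.086, the inflammatory monocyte-like value -0.052 and the B cell-like value -0.038. The same step turned the cDC1-like sum to 0.055 and the cDC2-like sum to 0.20, and raised the intermediate sum to 0.25. With resident macrophage-like, intermediate and inflammatory monocyte-like cells pooled, which does not depend on the borders between them, the sum was 14296 (WT) and 13105 (KO) CPM, and its ratio of -0.13 on the log2 scale (-0.14 to -0.11) turned to 0.034 with the same step. The shares of all genes given per class below are without this step and for the main setting. Counts after the step or under other settings cannot be set against them, unless a share of their own is printed.

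**Figure D3:**
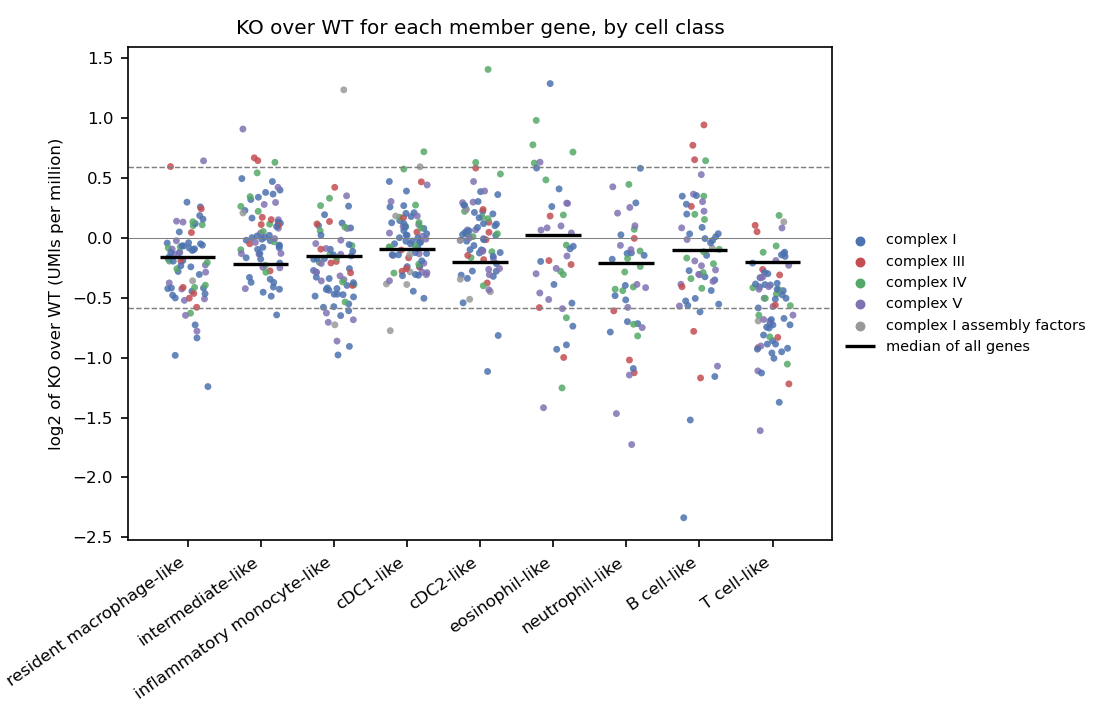
Log2 ratio of KO over WT (vertical axis) for each gene with at least 50 UMIs over both libraries, by cell class, coloured by complex; black bars give the median of all genes and dashed lines mark 1.5-fold. In T cell-like cells 32 of 73 points lie below the lower dashed line, while in cDC1-like and cDC2-like cells most points lie between the lines.

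In resident macrophage-like cells 7 of the 72 genes with enough UMIs were at least 1.5-fold lower in KO and 2 were higher, where 20.1% and 9.45% of all genes were. Complex I had 3743 CPM in WT and 3112 CPM in KO, complex III 1494 and 1211 CPM, complex IV 3857 and 3367 CPM, and complex V 4005 and 3332 CPM. All complexes were thus lower in KO by similar amounts, between -0.20 for complex IV and -0.30 for complex III on the log2 scale, beside a median of -0.16 over all genes. The count and the size depend on the clustering and the cell filter, with 2 to 30 lower genes and sums of -0.50 to -0.077 over the alternatives. No share of all genes under these alternatives is given, so their counts cannot be set against genes in general. The class also differed in its own markers, since the 12 resident macrophage markers summed to 21896 CPM in WT and 15604 CPM in KO, the 11 inflammatory monocyte markers to 1168 and 2130.3 CPM and the 8 cDC2 markers to 278 and 675 CPM, all of them detected in both libraries, and the part of this was not tested. The lowest ratio was that of Ndufa3, with 187 CPM in WT and 78.9 CPM in KO (log2 -1.24, interval -1.56 to -0.92). Ndufv3, a small subunit of the NADH-binding arm, had 114 and 57.9 CPM, and Ndufc1, a membrane arm subunit, 156 and 87.2 CPM. Atp5g1, the remaining c subunit gene, went the other way, from 88.1 CPM in WT to 137 CPM in KO (log2 0.64, 0.29 to 1.00). Uqcrfs1, the Rieske iron-sulphur protein that carries electrons in complex III, had 60.0 CPM in WT and 90.5 CPM in KO (log2 0.59, 0.17 to 1.03). Over the alternatives Atp5g1 ran from 0.18 with a stricter cell filter to 0.88, Uqcrfs1 from 0.090 at a higher clustering resolution to 0.75, and Ndufc1 from -1.25 to -0.31 with each library clustered alone, so that all 3 are past the fold under some settings and not under others.

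The intermediate cells had 1 of 72 genes at least 1.5-fold lower and 4 higher, beside 24.4% and 6.73% of all genes. After subtraction of the median of all genes 0 were lower and 11 higher, with no share of all genes after the same step to set beside these counts. The 11 inflammatory monocyte markers summed to 5808 CPM in WT and 3086 CPM in KO and the 12 resident macrophage markers to 6324 and 4267 CPM, all detected in both libraries, and their part was not tested. Ndufa3 was again the lowest, with 225 CPM in WT and 144 CPM in KO. Atp5g1 had 108 CPM in WT and 202 CPM in KO (log2 0.91, 0.67 to 1.14), Uqcrfs1 84.4 and 134 CPM, and Uqcrb, the ubiquinone-binding subunit of complex III, 119 and 186 CPM. Ndufa3 and Uqcrb were each past the fold in 3 of 4 alternatives.

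Among inflammatory monocyte-like cells 9 of 73 genes were at least 1.5-fold lower and 1 was higher, where 20.1% and 11.2% of all genes were. The lower count was 3 after subtraction of the median of all genes, 2 at a lower clustering resolution and 4 with the genes among those used for clustering. Ndufv3 (98.6 and 50.02 CPM), Ndufab1, the mitochondrial acyl carrier protein (67.5 and 35.97 CPM), and Atp5g1 (216 and 119 CPM, log2 -0.86, -1.16 to -0.56) were lowest in KO. The Atp5g1 value was -0.12 at a higher clustering resolution and -0.11 with each library clustered alone, where it was not past the fold, and Ndufab1 was past it in 2 of 8 alternatives, with -0.40 as the value nearest to 0. The gene past the fold upwards was Ndufaf7, an arginine methyltransferase needed for complex I assembly, on 7 WT and 83 KO UMIs (12.1 and 28.4 CPM). Marker sums of other cell types differed in the class, from 519 CPM in WT to 130.2 CPM in KO for mature dendritic cells (7 and 8 of 8 detected), 254 to 101.1 CPM for cDC2 and 560.4 to 887 CPM for neutrophils (8 of 8 in both), beside 10047 and 9280.3 CPM for its own markers, and their part was not tested. The class holds a pair of clusters that differed. In the cluster led by Chil3, Ace and Lyz2 (53 WT and 294 KO cells) the sum went from 15052 to 13932 CPM between WT and KO, with a log2 ratio of -0.11 (-0.15 to -0.069). The cluster with the interferon-induced genes Rsad2, Ifit3 and Usp18 among its leading genes (27 WT and 42 KO cells) had 16795 and 11566 CPM, a ratio of -0.54 (-0.60 to -0.47), and 22 of 51 genes at least 1.5-fold lower, beside 21.2% of all genes there.

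In cDC1-like cells 1 of 79 genes was at least 1.5-fold lower and 2 were higher, beside 10.6% and 7.56% of all genes. The lower gene was Ndufaf6, an assembly factor, on 27 WT and 45 KO UMIs, and the higher genes were Cox6b2 (32 WT and 150 KO UMIs, log2 0.72) and the assembly factor Ndufaf2 (18.5 and 27.9 CPM). Cox6b2 was past the fold in 6 of 7 alternatives and Ndufaf2 in 5 of 7. In cDC2-like cells 2 of 77 were lower and 2 higher, beside 23.5% and 9.57%. After subtraction of the median of all genes 2 were lower and 7 higher (1 and 3 in cDC1-like cells), with no share of all genes after that step. The genes named next are those past the fold without it. The lower genes were core subunits of complex I, Ndufs1, which holds iron-sulphur clusters of the NADH-oxidising arm (35.1 CPM in WT and 16.2 CPM in KO, log2 -1.12, -1.58 to -0.64), and Ndufs7, which holds the last cluster before ubiquinone (46.0 and 26.1 CPM, log2 -0.82, -1.21 to -0.42). The higher genes were Cox8a (396 and 611 CPM) and Cox6b2 (12.1 and 31.9 CPM). Cox8a was past the fold in 5 of 10 alternatives. The class joins a cluster of 150 WT and 310 KO cells with another, led by Mgl2 and Ccl17, of 4 WT and 127 KO cells. Without the latter, a choice made after seeing the data, the log2 ratios were -1.02 for Ndufs1, -0.82 for Ndufs7, 1.45 for Cox6b2 and 0.57 for Cox8a, the last no longer past the fold. Inflammatory monocyte markers summed to 2008 (WT) and 871 (KO) CPM in cDC1-like and to 1645 and 732 CPM in cDC2-like cells. In both classes 10 and 11 of 11 were detected. Neutrophil markers had 288 and 506 CPM in cDC1-like (7 and 8 of 8) and 1190 and 785 CPM in cDC2-like cells (8 of 8 in both). T cell markers in cDC2-like cells had 56.9 and 144 CPM (7 and 8 of 10). The part of these markers was not tested.

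In eosinophil-like cells 8 of 42 genes were at least 1.5-fold lower and 6 were higher, where 14.1% and 18.8% of all genes were. Atp5g2 (251 and 94.1 CPM), Cox7a2l (183 and 77.0 CPM) and Uqcr11, the smallest complex III subunit (133 and 66.3 CPM), were lowest in KO. Ndufa1, a complex I accessory subunit (78.2 and 190.3 CPM), Cox7a2 (133 and 261 CPM) and Cox7c (228 and 389 CPM) were highest. Ndufa1 was past the fold in 6 of 7 alternatives. Complex III as a whole had 1009 CPM in WT and 757 CPM in KO (log2 -0.41, -0.64 to -0.19). Markers of other cell types differed as well, with sums of 3745 and 235 CPM for mast cells (5 and 4 of 8 markers detected), 1828 and 319 CPM for resident macrophages (11 of 12 in both, Cd163 at 0), 3286 and 5682 CPM for inflammatory monocytes (11 and 10 of 11) and 1074 and 1709 CPM for eosinophils (5 of 6 in both, Epx at 0), and their part was not tested. In the WT cells the 8 neutrophil markers, all detected, summed to 6922 CPM, above the eosinophil markers.

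In neutrophil-like cells 13 of 42 genes were at least 1.5-fold lower and 0 were higher, beside 22.3% and 14.4% of all genes, and after subtraction of the median of all genes 7 were lower and 3 higher. Complex III was here past 1.5-fold, as no other complex was in any of the 9 classes, with 868.5 CPM in WT and 509 CPM in KO (log2 -0.77, -1.01 to -0.52). Atp5g3 (106 and 32.2 CPM), Atp5g2 (132 and 47.7 CPM) and Atp5a1, the alpha subunit of the catalytic head (192 and 86.6 CPM), were lowest. The 8 neutrophil markers summed to 43161 CPM in WT and 77932 CPM in KO and the 12 resident macrophage markers, 10 and 11 of them detected and Mertk at 0 in both, to 1294 and 495 CPM, whose part in these differences was not tested. The lowest genes rest on few molecules, 25 WT and 29 KO UMIs for Atp5g3. Cox8a, by contrast, stood at 396 (WT) and 538 (KO) CPM.

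In B cell-like cells 7 of 58 genes were at least 1.5-fold lower and 4 were higher, beside 16.8% and 7.05% of all genes, and 6 and 5 after subtraction of the median. Neutrophil markers summed to 605.6 CPM in WT (8 of 8 detected) and 66.0 CPM in KO (5 of 8, Cxcr2, Retnlg and Mmp9 at 0), and their part was not tested. Ndufc1 had 57 WT and 6 KO UMIs (76.9 and 15.2 CPM, log2 -2.34, -3.84 to -1.13), and its partner Ndufc2 had 54 and 10 (72.8 and 25.4 CPM). Ndufc2 was past the fold in 6 of 7 alternatives. The genes past the fold upwards were Uqcrfs1 (71.5 and 137 CPM), Uqcr10 (115 and 195 CPM) and Uqcrb (72.8 and 114 CPM) of complex III and Cox8a (236 and 368 CPM) of complex IV, while complex III as a whole had a log2 ratio of -0.049 (-0.21 to 0.11). Uqcr11 of complex III was among the lowest, with 97.1 and 43.2 CPM, but its ratio of -1.17 turned to 0.30 when each library was clustered alone.

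In T cell-like cells 32 of 73 genes (43.8%) were at least 1.5-fold lower and 0 were higher, where 25.4% and 9.26% of all genes were; after subtraction of the median of all genes 19 were lower. Complex I had 4616 CPM in WT and 3106 CPM in KO, complex III 1913 and 1412 CPM, complex IV 4573 and 3399 CPM, and complex V 5645 and 3867 CPM. The assembly factors had 141 and 90.7 CPM (log2 -0.63, -1.05 to -0.23). Atp5k, the e subunit of the ATP synthase, which acts in its dimers, had 347 CPM in WT and 114 CPM in KO (log2 -1.61, -1.96 to -1.27). Ndufv2, a core subunit with an iron-sulphur cluster (52.6 and 20.3 CPM), and Uqcr11 (205 and 88.0 CPM) were next. Cox7a2l had the highest ratio of the class, with 279 and 317 CPM.

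The T cell-like difference lay mainly in 1 of 3 clusters. In the cluster led by Gzma, Gzmb and Cd3g, with Cd8a among its leading genes (143 WT and 33 KO cells), the sum was 18633 CPM in WT and 12023 CPM in KO (log2 -0.63, -0.69 to -0.57), with 46 of 70 genes at least 1.5-fold lower, where 32.6% of all genes in the cluster were. The cluster led by Icos and Rora (73 WT and 47 KO cells) had 13604 and 13323 CPM (log2 -0.030, -0.089 to 0.029). The cluster led by Lef1 and Tcf7, on 26 WT and 30 KO cells, had 11821 and 8908 CPM (log2 -0.41, -0.51 to -0.30). Without the Gzma cluster the class ratio was -0.16 (-0.21 to -0.10), with 8 genes at least 1.5-fold lower, beside 17.9% of all genes. The natural killer cell markers, a list that holds Gzma and Nkg7, summed to 16271 CPM in the WT cells of the Gzma cluster and to 522 CPM in its KO cells. Over the whole class they came to 11162 and 286 CPM with all 8 detected in both libraries, and mast cell markers to 1609 and 17.6 CPM with 6 and 1 of 8 detected. The WT cells of the Gzma cluster also carried plasma cell markers at a sum of 10085 CPM against 139 CPM in KO, and epithelial markers at 236 against 78.6 CPM. In the whole T cell-like class all 8 plasma cell markers were detected in WT and 5 in KO (7203 and 143 CPM), and 9 and 4 of the 9 epithelial markers (208 and 48.7 CPM). Both marker sums were higher in WT in all 9 classes, between 787 and 7203 CPM in WT and 84.4 and 315 CPM in KO for plasma cells, and 124 to 421 CPM in WT and 15.1 to 102 CPM in KO for epithelial cells. The part of these markers in the differences between the libraries was not tested.

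Some genes kept a direction across classes. Of the 37 genes with enough UMIs everywhere, 8 were lower in KO in all 9 classes (21.6%, beside 9.91% of all 1524 genes) and 0 were higher in all. They were Ndufa3, Ndufa6, Uqcrh, Cox4i1, Cox6a1, Atp5a1, Atp5g2 and Atp5g3. After subtraction of each class's median, Ndufa6 and Atp5g2 remained lower in all and Cox8a was higher in all, where 4.003% of all genes were lower and 4.59% higher in all, so few of these directions outlast the shift of genes in general. Atp5g2 had a median ratio of -0.65 over the 9 classes, with 389 (WT) and 248 (KO) CPM in the resident macrophage-like class, 306 to 198 CPM in inflammatory monocyte-like cells and 519 to 419 CPM in cDC1-like cells. Cox8a, the subunit 8 isoform of most tissues, had a median of 0.57 and was higher in KO in 8 of 9 classes, among them intermediate (399.7 to 618 CPM), cDC1-like (427 to 635 CPM) and B cell-like cells (236 to 368 CPM). The exception was T cell-like cells, with 464 CPM in WT and 443 CPM in KO (log2 -0.070, -0.26 to 0.12), and in resident macrophage-like cells the interval also held 0 (355 and 389 CPM, log2 0.13, -0.050 to 0.32).

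The c subunit of the ATP synthase ring is made from 3 genes, Atp5g1 (chr11:96068852-96075670), Atp5g2 (chr15:102662864-102672352) and Atp5g3 (chr2:73908447-73911326, GRCm38, all on the minus strand), whose mature proteins are known to be identical and which differ in their import sequences, so their balance changes the source of the same protein. Atp5g1 made up 11.6% of the UMIs of Atp5g1, Atp5g2 and Atp5g3 in WT resident macrophage-like cells (interval 9.48 to 14.01) and 24.97% in KO (22.3 to 27.8). The share went from 14.3% to 27.9% in intermediate cells, from 18.2% to 25.3% in cDC1-like cells, from 19.2% to 28.7% in cDC2-like cells, from 10.3% to 21.9% in B cell-like cells and from 14.1% to 21.8% in T cell-like cells. In each of these 6 classes the intervals of the libraries did not overlap. For T cell-like cells they did when each library was clustered alone. Intermediate cells could not be compared under the other clusterings. They formed no class at a lower or higher resolution or with each library clustered alone. KO cells were too few with the stricter cell filter (29) and with the genes among those used for clustering (45). Eosinophil-like (13.3% and 15.5%) and neutrophil-like cells (24.3% and 28.0%) had overlapping intervals. A higher share did not always go with a higher level of Atp5g1. Its CPM was lower in KO in T cell-like (137 and 116), eosinophil-like (78.2 and 55.6) and neutrophil-like cells (76.6 and 31.1). In T cell-like cells Atp5g2 had 458 and 245 CPM and Atp5g3 374 and 173 CPM. In resident macrophage-like, intermediate, cDC1-like, cDC2-like and B cell-like cells the Atp5g1 CPM was higher in KO. The neutrophil-like share was lower in KO with the stricter cell filter (30.9% in WT and 27.6% in KO). It was also lower with each library clustered alone (22.5% and 17.8%), both times with overlapping intervals. In inflammatory monocyte-like cells the WT share was 27.7% (23.6 to 32.1) and the KO share 25.04% (22.8 to 27.4), a result that depends on which cells are clustered into the class. At a higher clustering resolution, with 411 in place of 80 WT cells, the shares were 18.8% (17.1 to 20.6) and 26.1% (23.9 to 28.3). With each library clustered alone they were 17.9% (16.2 to 19.7) and 24.8% (22.6 to 27.2), again higher in KO. The KO share stayed below the WT share, with overlapping intervals, under the other settings. These were the stricter cell filter (26.8% and 24.98%), a lower resolution (29.9% and 24.8%) and the genes among those used for clustering (27.8% and 24.7%). In the WT library the intervals of inflammatory monocyte-like and resident macrophage-like cells did not overlap under these settings, and in the KO library they did. The alternatives for this share were chosen after seeing the data.

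**Figure D4:**
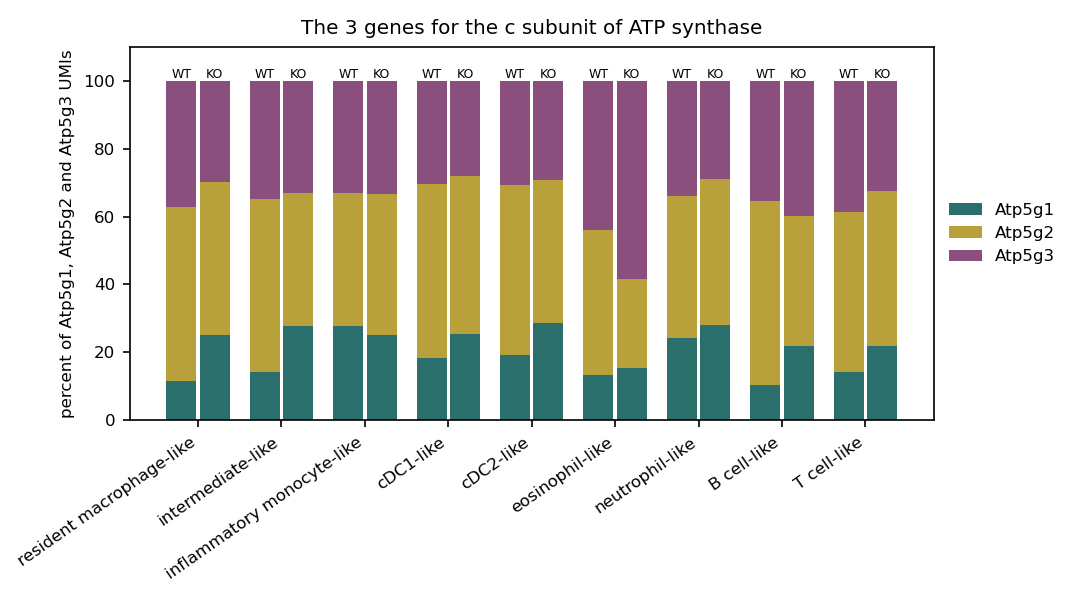
Share of Atp5g1, Atp5g2 and Atp5g3 in the UMIs of the 3 genes (vertical axis, percent) for each cell class, WT bar left and KO bar right. The Atp5g1 segment at the foot of the bars is taller in KO in 8 of the 9 classes, from 11.6% to 24.97% in resident macrophage-like cells, and slightly shorter in inflammatory monocyte-like cells. Of these 8, the T cell-like, eosinophil-like and neutrophil-like classes had a lower Atp5g1 CPM in KO.

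Complex IV isoforms that are known from other tissues were rare. Cox4i2, the subunit 4 isoform of lung, had 14 UMIs over both libraries, Cox8b and Cox6a2, the heart and muscle isoforms, 12 and 9, and Ndufa4l2 11. Cox7b2 and Cox8c, both known from testis, had 0 UMIs, which allows up to 0.158 CPM over the kept WT cells and 0.134 CPM over the kept KO cells. Cox7a1, the heart and muscle isoform, had 293 UMIs in kept WT cells, of which 264 lay in epithelial-like cells, where it made up 8.27% of the UMIs of Cox7a1, Cox7a2 and Cox7a2l (interval 7.33 to 9.27). Cox6b2, known as a testis isoform, was present in dendritic cells, with 3.73% of the UMIs of Cox6b1 and Cox6b2 in WT cDC1-like cells and 6.30% in KO. In cDC2-like cells the share was 3% (1.87 to 4.55) on 21 UMIs in WT and 7.52% (6.58 to 8.55) on 215 UMIs in KO, and in resident macrophage-like cells 0.735% on 3 UMIs and 5.99% on 38 UMIs. Fibroblast-like cells had the highest share, 20.0% on 17 WT UMIs (12.1 to 30.1). Neutrophil-like and B cell-like cells had 0 UMIs of Cox6b2 in both libraries. Since reads are counted near the 3' end and are not divided by gene length, a share compares classes and libraries and not the molar amounts of isoforms.

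The balance of Cox7a2 and Cox7a2l also differed between classes. Cox7a2 made up 41.5% of the trio in WT eosinophil-like cells (31.4 to 52.1) and 76.2% in KO (68.9 to 82.6), and 73.4% in WT plasma cell-like cells (71.1 to 75.6). It was 35.1% in WT and 32.4% in KO B cell-like cells, the lowest of the 9 classes in both libraries.

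The subunits encoded by mitochondrial DNA did not follow the nuclear genes. Over the 18 points the correlation of the log2 sums was 0.038. Of the 9 classes, the 13 mitochondrial genes were highest in B cell-like cells, with 62914 (WT) and 53316 (KO) CPM, so that the nuclear genes came to 0.172 and 0.184 of them. In cDC1-like cells the ratio was 0.548 in WT and 0.549 in KO. In the main setting neutrophil-like cells differed most between the libraries. Their mitochondrially encoded UMIs were 35864 CPM in WT and 15283 CPM in KO (log2 -1.23, -1.27 to -1.19), 11 of the 12 mitochondrial genes with enough UMIs were at least 1.5-fold lower (22.3% of all genes were), and the nuclear to mitochondrial ratio went from 0.235 (0.223 to 0.247) to 0.446 (0.433 to 0.460). In T cell-like cells the ratio went from 0.394 to 0.262 and in resident macrophage-like cells from 0.287 to 0.221, since the nuclear sum was lower in KO while the mitochondrial sum was higher (42875 and 45328 CPM in T cell-like, 45904 and 50113 CPM in resident macrophage-like cells). The cell filter acts on the mitochondrially encoded UMIs, so these ratios hold for cells below its limit. With the stricter cell filter the neutrophil-like ratios of the libraries lay closer together. Over the alternatives the mitochondrial over nuclear log2 KO to WT ratio of resident macrophage-like cells (0.37) ran from 0.21 to 0.78. That of T cell-like cells (0.59) ran from 0.15 to 0.81, and their clusters differed. In the Gzma cluster the nuclear sum was 18633 (WT) and 12023 (KO) CPM and the mitochondrial sum 41493 and 44711 CPM. The Icos and Rora cluster had 13604 and 13323 CPM beside 44306 and 42907 CPM. The Lef1 and Tcf7 cluster had 11821 and 8908 CPM beside 50407 and 50736 CPM.

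**Figure D5:**
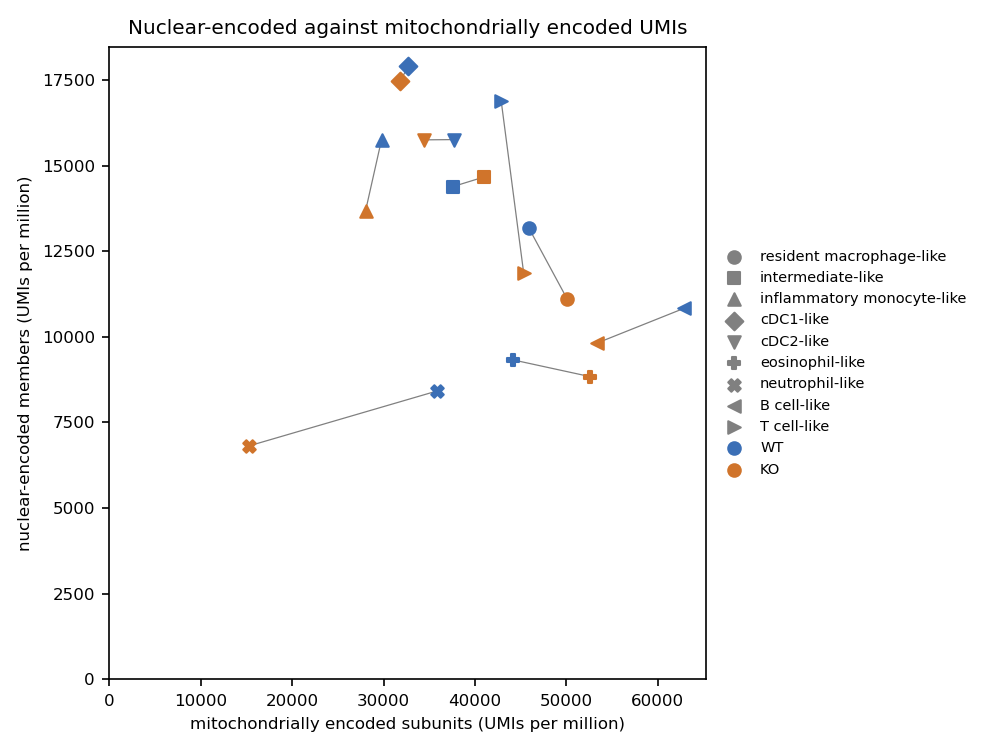
Summed nuclear-encoded genes against summed mitochondrially encoded subunits (both axes CPM, from 0) for the 9 classes, with WT in blue, KO in orange and a line joining the libraries of a class. The points do not lie along a line, and the neutrophil-like pair spans 35864 to 15283 on the horizontal axis.

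Neighbouring genes of the pathway were read from fixed lists, whose counts stand beside the shares of all genes given for each class above. Complex II, which feeds electrons from succinate and has no mitochondrially encoded subunit, was at 284 (WT) and 238 (KO) CPM in the resident macrophage-like class, with 1 of 4 genes at least 1.5-fold lower and 1 higher. In inflammatory monocyte-like, cDC1-like, cDC2-like and T cell-like cells 0 of its 4 genes were past the fold. The 13 genes of the tricarboxylic acid cycle, which supplies NADH and succinate, stood at 854 (WT) and 571 (KO) CPM in inflammatory monocyte-like cells (log2 -0.58, -0.73 to -0.43), with 5 of 11 genes at least 1.5-fold lower and 0 higher, beside 20.1% and 11.2% of all genes. In cDC2-like cells they had 1313 and 919 CPM (log2 -0.51, -0.58 to -0.44), with 3 of 13 lower, a share near the 23.5% of all genes, while the sum of the oxidative phosphorylation genes differed by -0.00069. In resident macrophage-like cells the cycle had 709 and 589 CPM, with 1 of 13 lower and 2 higher. Of the assembly factors of the other complexes, 6 of 7 were at least 1.5-fold lower in T cell-like cells (773 and 476 CPM in sum, beside 25.4% of all genes) and 1 of 5 in resident macrophage-like cells (601 and 480.4 CPM). The regulators of mitochondrial biogenesis were at 294 (WT) and 227 (KO) CPM in the resident macrophage-like class, with 2 of 5 genes lower and 2 higher, and 475 and 483 CPM in T cell-like cells, with 2 of 6 lower and 1 higher.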

How the data were processed

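The authors deposited 10x matrices of whole UMI counts, made with software version 3.0.2 per the file headers; the aligner is not given in the sources used here. The submitters' processing notes name mm10 and Seurat 4. Coordinates are those of GENCODE M21 (GRCm38). Cells with fewer than 200 or more than 6000 genes or over 15% mitochondrial UMIs were removed, as the study's methods state, and no doublet caller was run. The study's DESC clustering and Poisson model over cells were not used. For clustering, each cell was scaled to 10000 and put on a log scale, and 2000 variable genes without the described genes and pathway lists, 30 principal components, 15 neighbours and Leiden resolution 1 were used (scanpy 1.11.5, leidenalg 0.10.2, Python 3.11.15). A class needed 3 markers raised 2-fold and detected in 10% of cells. That marker numbers within 1 of each other are called intermediate was decided after a first clustering. Of 21 clusters 1 stayed unnamed (96 WT and 52 KO cells). UMIs were summed per class and library; ratios use exact conditional binomial, CPM exact Poisson and shares exact Clopper-Pearson intervals. Single genes needed 50 UMIs over both libraries in a class. Ratios and intervals were tested on simulated independent Poisson counts with known fold changes. These hold no spread between cells or animals, so the test covers counting error only. The genes named come from a list of core subunits, isoforms and assembly factors, from the 3 highest and 3 lowest KO to WT ratios per class and from the 5 with the widest range over classes, not each of them being printed, and, chosen after their values were seen, genes of one direction across classes and the narrowest ranges. The genes and lists were chosen with earlier results of these data known. Ndufb2, Ndufb8 and Ndufb9 share exons on the same strand with other features and are uncertain, and reads of processed pseudogenes cannot be told apart. Of the kept complex V genes, 1 also overlaps another feature.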

Additional observations from a re-analysis of the deposited data

Results flagged for a closer look

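Directions differed between cell classes for 2 genes, which were at least 1.5-fold apart in opposite directions with intervals off 0. Atp5g1 had a log2 KO to WT ratio of -0.86 in inflammatory monocyte-like cells (125 WT and 347 KO UMIs) and 0.91 in intermediate cells (380 WT and 253 KO UMIs). Cox7c had -0.65 in T cell-like cells (903 WT and 291 KO UMIs) and 0.77 in eosinophil-like cells (67 WT and 182 KO UMIs). The Atp5g1 value of inflammatory monocyte-like cells was -0.12 at Leiden resolution 2 and -0.11 with each library clustered alone, no longer 1.5-fold apart. The difference between the classes was not tested, since each genotype is 1 library.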

How the results depend on the processing

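No paired analysis was possible because each genotype has 1 library. Of 80 recomputed values of the main results, 45 stayed within the counting interval or within 1.5 times the count, 35 moved and 0 changed sign. The summed ratio stayed below 0 under all alternatives in resident macrophage-like, inflammatory monocyte-like, neutrophil-like and T cell-like cells, and changed sign under at least 1 in the other classes. For the macrophage and monocyte classes pooled it was -0.13, and 0.034 minus the median of all genes.

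In resident macrophage-like cells the summed log2 ratio (-0.25) was -0.086 minus the median of all genes, -0.22 without the top 5% of cells by UMI count, -0.50 with the stricter filter (500 to 5000 genes, at most 10% mitochondrial UMIs), -0.19 at Leiden resolution 0.5, -0.41 at 2, -0.077 with each library clustered alone, -0.43 with the genes among the variable genes and -0.17 with intermediate cells counted in, a choice made after seeing the data. The count of lower genes (7) was 4, 30, 2, 19, 3, 23 and 2 under these settings, the top 5% aside. In inflammatory monocyte-like cells the ratio (-0.20) was -0.052 minus the median, -0.15 with the stricter filter, -0.13 at resolution 0.5, -0.16 at 2 and -0.12 with separate clustering, and the count (9) was 3 minus the median, 5 at a minimum of 200 UMIs, 2 at resolution 0.5 and 4 with the genes among the variable genes. In T cell-like cells the ratio (-0.51) was -0.30 minus the median, -0.45 as a median over cells, -0.58 with the stricter filter, -0.68 with separate clustering and -0.16 without the Gzma cluster, added after seeing the data, and the count (32) was 19 minus the median and 8 without that cluster. The cDC1-like over neutrophil-like value was 1.30 as a median over cells and 1.16 without the top 5% in WT (1.09), and 1.42 without the top 5% and 1.31 with the stricter filter in KO (1.36). Uqcr11 in B cell-like cells went from -1.17 to 0.30 with separate clustering. The cause was not tested.

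Atp5g2 was lower in KO in all 73 recomputed values, and Cox8a was higher in 67 of 76. Of 38 single-gene ratios past 1.5-fold among the 3 highest and lowest of each class, 25 were past it under all alternatives that gave a value and 13 were not under at least 1. Atp5g1 in inflammatory monocyte-like cells ran from -0.91 to -0.11. The cDC1-like sum was highest and the neutrophil-like sum lowest in both libraries, except that eosinophil-like cells were lowest in WT at resolution 2 and that separate clustering gave no WT cDC1-like or eosinophil-like class, so that of the 6 classes left in both libraries the T cell-like sum was highest in WT and the cDC2-like sum in KO. The mitochondrial over nuclear log2 ratio of neutrophil-like cells (-0.93) ran from -0.99 to -0.44, the latter with the stricter filter. Depth limits the eosinophil-like and neutrophil-like classes, where 42 of the 82 genes had enough UMIs.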
